A study of Mus musculus with 12 samples.

Results

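The genes described here encode proteins of the mitochondrial ribosome, measured by RNA sequencing in interscapular brown fat, the heat-producing fat depot between the shoulder blades of the mouse. They are the 76 genes of the count table whose symbol begins with Mrpl or Mrps and a number, out of 38924 genes in all, and 4 symbols of pseudogenes (marked -ps) were left out. The symbols name 47 genes for the large subunit (Mrpl) and 29 for the small subunit (Mrps). The mice were wild type, of the strain C57BL/6J, and 14 weeks old, and each had spent 4 weeks at a single ambient temperature. The groups were 4 mice at 30 °C, which the labels call thermoneutral, 4 mice at 22 °C and 4 mice at 6 °C, with 1 library per mouse, 12 libraries in all. Nothing else distinguishes the groups in the labels. At 30 °C, 2 of the 4 libraries carry the letter of that group but a number found in no title of the group, and they are called mice A and B.

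The mitochondrial ribosome translates the few messenger RNAs of the mitochondrial genome, all of which encode membrane subunits of the respiratory chain and ATP synthase. Its RNAs come from mitochondrial DNA, whereas all its proteins are encoded in the nucleus, made in the cytosol and imported. Some of the proteins have counterparts in the bacterial ribosome and others are found only in mitochondria. Brown fat cells are dense in mitochondria, and their respiratory chain drives heat production through the uncoupling protein Ucp1.

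Total counts lay between 18290162 and 32513051 per library, except for 22 °C mouse 3 with 86438386 counts, whose library code (8846) also lies outside the run of the others (7509 to 7520). Levels below are CPM, the read count relative to the size of the library after scaling by the trimmed mean of M-values (TMM). Of the 76 genes, 75 passed the filter on low counts and were tested. The gene removed was Mrpl53, a large subunit protein, with 37 counts in all and between 1 and 5 per library. In the annotation 88.0% of its exon bases lie under Gm42688 on the same strand. Mrpl23, the counterpart of a bacterial protein at the exit of the polypeptide tunnel, was tested on 382 counts in all, with 16 to 94 per library. Pseudogenes of Mrpl23, Mrpl48 and Mrps36 stand in the same table, so the counts of these 3 genes are uncertain where reads of near-identical copies could be split.

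The members lie on 17 chromosomes, and 10 of them on chromosome 11. RefSeq promoter windows of GRCm38.p6, which reach from 250 bases before to 50 bases after a start site, were found for 67 members in 73 windows. These were searched on both strands for 3 motifs tied to genes of mitochondrial proteins: GCGCA, any base and then GCGC of the transcription factor NRF1, CCGGAAG of ETS factors such as GABPA, and ATGGCGGC of YY1. NRF1 letters stood in 12 of the 73 windows (16.4%, against 4.60% of all 32851 promoters), ETS letters in 24 (32.9%, against 8.86%) and YY1 letters in 12 (16.4%, against 2.24%). At least 1 of them stood in 53.4% of the member windows and 14.1% of all windows. Windows of cytosolic ribosomal protein genes held NRF1 letters in 7.89%, ETS letters in 35.5% and YY1 letters in 6.58%. For nuclear genes of respiratory chain subunits these shares were 25.4%, 22.5% and 9.86%. The ETS and NRF1 shares are thus not particular to the members. In 0 member windows did matches of 2 motifs overlap. Median GC content was 58.3% in the member windows and 52.7% in all windows, and its part in these shares was not tested. A match is a run of letters, not a shown binding site.

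These upstream stretches are given because their genes took different courses over the temperatures described below. They are the 250 bases before the start site, 5′ to 3′ on the strand of the gene, and hold no annotated exon base. Capitals mark motif letters. Mrps2 (chr2:28467816-28468065, plus strand), Mrpl20 (chr4:155802628-155802877, plus strand) and Mrps22 (chr9:98601680-98601929, minus strand) rose at both temperature steps. Mrps9 (chr1:42850983-42851232, plus strand) and Mrpl34 (chr8:71464676-71464925, plus strand) fell from 22 to 6 °C. Mrpl45 (chr11:97315466-97315715, plus strand) has 3 NRF1 matches in its window, of which 2 are in the bases shown.
Mrps2: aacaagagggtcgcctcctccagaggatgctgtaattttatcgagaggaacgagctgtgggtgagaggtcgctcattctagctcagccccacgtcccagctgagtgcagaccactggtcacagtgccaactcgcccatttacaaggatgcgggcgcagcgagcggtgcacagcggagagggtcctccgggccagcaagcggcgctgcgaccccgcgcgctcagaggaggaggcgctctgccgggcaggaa
Mrpl20: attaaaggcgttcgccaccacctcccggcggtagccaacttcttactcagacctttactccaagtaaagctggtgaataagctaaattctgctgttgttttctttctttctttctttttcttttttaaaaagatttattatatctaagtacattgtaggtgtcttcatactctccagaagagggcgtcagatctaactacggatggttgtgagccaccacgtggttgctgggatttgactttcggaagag
Mrps22: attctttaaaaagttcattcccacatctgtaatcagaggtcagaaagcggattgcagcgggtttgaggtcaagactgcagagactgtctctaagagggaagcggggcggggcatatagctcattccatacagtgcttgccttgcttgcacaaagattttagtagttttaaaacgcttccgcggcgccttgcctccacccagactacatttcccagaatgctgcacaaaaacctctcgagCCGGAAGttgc
Mrps9: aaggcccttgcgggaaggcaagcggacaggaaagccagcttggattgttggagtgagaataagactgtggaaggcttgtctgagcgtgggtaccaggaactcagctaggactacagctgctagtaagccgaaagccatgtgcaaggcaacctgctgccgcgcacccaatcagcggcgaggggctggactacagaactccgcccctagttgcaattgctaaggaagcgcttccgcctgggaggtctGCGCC
Mrpl34: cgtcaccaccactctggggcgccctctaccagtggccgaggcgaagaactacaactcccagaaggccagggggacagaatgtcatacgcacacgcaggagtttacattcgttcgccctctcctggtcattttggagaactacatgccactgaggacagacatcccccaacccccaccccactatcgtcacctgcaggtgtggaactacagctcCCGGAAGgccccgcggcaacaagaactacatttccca
Mrpl45: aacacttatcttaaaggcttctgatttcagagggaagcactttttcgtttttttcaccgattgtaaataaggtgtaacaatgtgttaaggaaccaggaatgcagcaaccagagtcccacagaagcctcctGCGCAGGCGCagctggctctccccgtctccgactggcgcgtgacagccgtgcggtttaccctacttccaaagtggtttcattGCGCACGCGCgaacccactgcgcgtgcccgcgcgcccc
The Mrps2 and Mrpl20 stretches hold none of the 3 motifs. Those of Mrps22 and Mrpl34 each hold ETS letters. The match in Mrps9 is of NRF1 on the other strand and crosses the start site, so only the part before that site is shown.

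Nearly all mitochondrial ribosomal protein genes were higher at 22 °C than at 30 °C. Of the 75 tested, 69 rose and 0 fell (adjusted p under 0.05, from the quasi-likelihood F-test of edgeR with p-values adjusted by Benjamini and Hochberg's method for all 14870 tested genes), where 44.6% of all tested genes were called, 21.8% as higher and 22.8% as lower. Their median log2 fold change was 0.52, against -0.02 over all tested genes, and it varied little among them (SD 0.20). In 65 of the 75 every 22 °C library was above every 30 °C library, as in 18.9% of all tested genes, and in 0 below (20% of all tested genes). For the large subunit 45 of 48 genes rose and for the small subunit 23 of 26, counting Mrps18a and Mrps30 with the large subunit, where structures place them. The sum of all members was 3113 ± 231 CPM (SD, n = 4) at 30 °C and 4514 ± 443 at 22 °C. The plot of summed levels shows that both subunits had their lowest 22 °C sum in mouse 3 and their lowest 30 °C sum in mouse B.

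**Figure D1:**
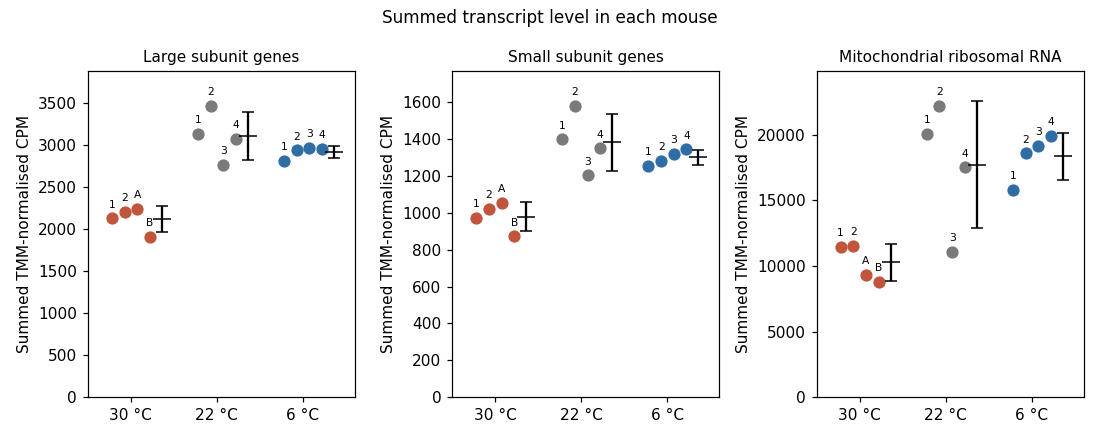
Summed TMM-normalised CPM of the large subunit genes, the small subunit genes and both mitochondrial ribosomal RNAs in each mouse (points, with the mouse number or letter) and the mean with its SD over 4 mice (black), against ambient temperature. The 22 °C and 6 °C sums of both subunits lie above all 30 °C sums; with total-count scaling only, the median log2 fold change of the members at 6 °C against 30 °C drops to 0.07.

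Mrpl20, the counterpart of a protein needed early in assembly of the bacterial large subunit, stood at 40.4, 43.8, 40.7 and 39.8 CPM in 30 °C mice 1, 2, A and B. It reached 76.7, 87.4, 67.9 and 78.3 CPM in 22 °C mice 1 to 4 and 85.5, 99.1, 98.4 and 102 CPM in 6 °C mice 1 to 4. The groups at 30 and 22 °C were far apart, and only 6 °C mouse 1 lay within the 22 °C range. Its rise at 22 °C was 1.88-fold (log2 fold change 0.91, SE 0.08, adjusted p = 1.2e-05), more than in any other member. Mrpl50, a mitochondria-specific large subunit protein, followed with a log2 fold change of 0.90 (SE 0.12), and Mrpl34, the highest member per exon length, with 0.85 (SE 0.10). Mrps27, a small subunit protein with pentatricopeptide repeats, rose by 0.82 (SE 0.11), Mrpl30 by 0.78 (SE 0.09) and Mrpl46, of the central protuberance, by 0.77 (SE 0.10). Mrps36, which was named as a ribosomal protein and has since been assigned to the oxoglutarate dehydrogenase complex, also rose, by 0.82 (SE 0.09), from 12.6 ± 1.27 to 22.2 ± 0.906 CPM.

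The 6 members that did not pass at 22 °C were Mrps6, Mrps9, Mrps25, Mrpl23, Mrpl49 and Mrpl52, with log2 fold changes from -0.28 (Mrpl23) to 0.20 (Mrpl52). Of Mrps25, 69.8% of the exon bases lie under Nr2c2 on the other strand. Whether reads were counted by strand is not given in the sources used here, and the reads of such a pair cannot be told apart. The same holds in part for Mrps34 (63.4% under Mapk8ip3), Mrpl19 (36.0% under Gcfc2), Mrpl43 (33.4% under Twnk), Mrps18b (30.5% under Gm16279), Mrpl24 (26.3% under Rrnad1), Mrps27 (24.2% under 6430562O15Rik) and Mrpl47 (24.2% under Actl6a and Ndufb5). Among the 50 tested members with under 5% of exon overlap on the other strand and under 5% on the same strand, 46 rose and 0 fell at 22 °C.

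At 6 °C against 30 °C, 54 of the 75 tested members rose and 1 fell (25 and 12 with total counts as the only scaling), where 56.8% of all tested genes were called, 25.3% as higher and 31.5% as lower. The median log2 fold change was 0.39 against -0.11 over all tested genes, and the members were less alike than at 22 °C (SD 0.35). In 54 members the 6 °C and 30 °C libraries did not overlap, all with the 6 °C libraries above, as in 24.1% of all tested genes (27.4% had them below). The summed level at 6 °C was 4238 ± 108 CPM (SD, n = 4), within the range of the 22 °C libraries. With total counts only, 50 members were higher and 0 lower at 22 °C against 30 °C. That scaling moved the median of all tested genes by -0.32 and -0.26 in these comparisons. Relative to the median of all tested genes, the members' median was 0.50 higher at 6 °C and 0.54 higher at 22 °C under both scalings. A change of scaling shifts all genes nearly alike, so these differences had to stay the same and are no check on the rise.

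Mrps2, the counterpart of bacterial S2 in the small subunit, had the highest log2 fold change of the members at 6 °C against 30 °C. Its level was 46.7, 59.5, 53.3 and 42.8 CPM in 30 °C mice 1, 2, A and B, then 92.4, 99.6, 68.6 and 72.6 CPM in 22 °C mice 1 to 4, and 109, 117, 119 and 132 CPM in 6 °C mice 1 to 4. The 3 groups did not overlap. Its level was 2.36-fold higher at 6 °C than at 30 °C (log2 fold change 1.24, SE 0.13, edgeR adjusted p = 6.4e-06). Mrpl20 came next at 1.22 (SE 0.08), before Mrpl50 at 1.11 (SE 0.12), Mrps27 at 1.07 (SE 0.11) and Mrpl46 at 1.05 (SE 0.10). They were followed by Mrpl47, the counterpart of a protein at the tunnel exit, at 0.95 (SE 0.11), Mrps22, a mitochondria-specific small subunit protein, at 0.93 (SE 0.09), and Mrpl38, also of the central protuberance, at 0.92 (SE 0.07). Mrps23, a mitochondria-specific protein of the small subunit, rose by 0.89 (SE 0.09) and Mrpl36, the counterpart of a small zinc-binding bacterial protein, by 0.88 (SE 0.09).

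The single member that fell against 30 °C was Mrpl49, a mitochondria-specific large subunit protein. It stood at 41.0, 44.9, 46.5 and 35.3 CPM in 30 °C mice 1, 2, A and B, at 45.0, 52.5, 46.2 and 45.3 CPM at 22 °C, and at 33.8, 37.3, 37.2 and 35.2 CPM at 6 °C. The 6 °C range lies wholly below the 22 °C range, but 30 °C mouse B lies within it. The log2 fold change at 6 °C against 30 °C was -0.22 (SE 0.09, edgeR adjusted p = 0.0457). DESeq2 gave -0.17 (adjusted p = 0.149), and limma voom gave -0.21 (adjusted p = 0.0603), so the call does not hold across tools. It was also lost on leaving out any single library other than 22 °C mouse 2 and 30 °C mouse B.

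**Figure D2:**
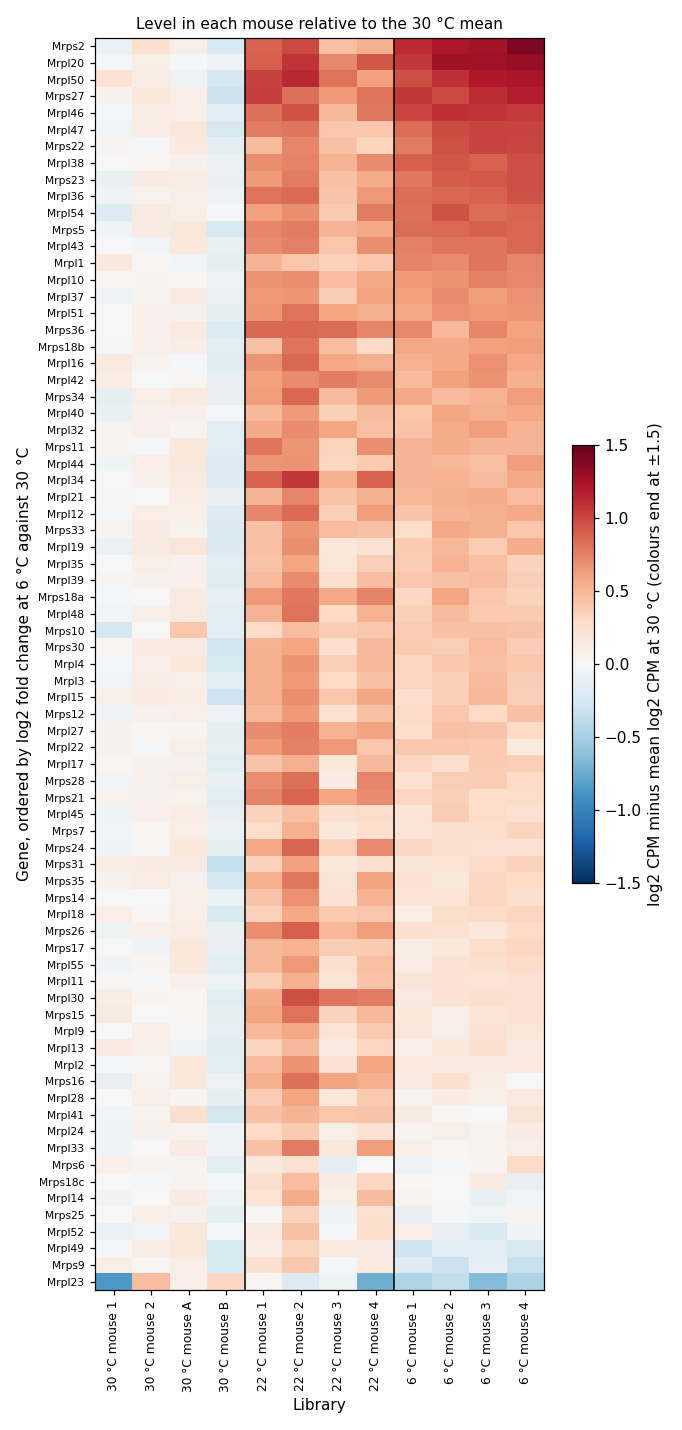
Colour shows the log2 CPM of each tested member (rows, ordered by log2 fold change at 6 °C against 30 °C) in each library (columns) minus its mean log2 CPM at 30 °C; colours end at 1.5 in either direction. Most rows are red at 22 °C, palest in mouse 3, and at 6 °C the top rows are darker than at 22 °C while the lower rows are paler; with total-count scaling only, 12 members are lower at 6 °C than at 30 °C.

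Between 22 and 6 °C the members split. Only 9 of 75 rose (12%) and 21 fell (28%), where 34.2% of all tested genes were called, 16.9% as higher and 17.4% as lower, so the share that rose is not above that of all genes. The counts depend on the setting: 33 fell with total counts only, 5 rose with the skeletal muscle markers as a covariate, and 4 rose and 8 fell at an adjusted p under 0.01. The median log2 fold change was -0.11, against -0.03 over all tested genes. Libraries of the 2 temperatures did not overlap in 10 members with 6 °C higher and in 18 with 6 °C lower (17.8% and 17.1% of all tested genes). All 9 that rose had also risen from 30 to 22 °C: Mrpl1, Mrpl20, Mrpl38, Mrpl46, Mrpl47, Mrpl54, Mrps2, Mrps22 and Mrps23. Of the 21 that fell, 19 had risen at 22 °C. Both counts lie near the share of all tested members that rose at that first step (69 of 75, 92%). Of these 19, 8 were still above 30 °C at 6 °C and 11 no longer passed the test against 30 °C. The other 2 were Mrps9 and Mrpl49, which had not passed at 22 °C. A further 37 members rose at 22 °C, passed no test between 22 and 6 °C and were higher at 6 °C than at 30 °C.

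The rise at the second step was highest in Mrps2 (log2 fold change 0.52, SE 0.13, edgeR adjusted p = 0.00843) and Mrps22. The latter had 24.2, 23.0, 26.0 and 21.2 CPM in 30 °C mice 1, 2, A and B, 32.6, 39.0, 31.9 and 29.6 CPM at 22 °C and 40.5, 45.5, 47.5 and 47.0 CPM at 6 °C. All its 6 °C libraries were above all its 22 °C libraries (log2 fold change 0.44, SE 0.09, adjusted p = 0.00349). Mrpl1, the counterpart of the protein of the bacterial L1 stalk of the large subunit, also rose. It measured 30.3, 27.8, 26.5 and 24.5 CPM in 30 °C mice 1, 2, A and B, 38.8, 36.1, 34.5 and 36.1 CPM at 22 °C and 45.4, 44.4, 47.4 and 45.3 CPM at 6 °C. Its groups did not overlap (log2 fold change 0.33 at the second step, SE 0.07, adjusted p = 0.0041). At an adjusted p under 0.05, calls of Mrps2, Mrps22, Mrpl1, Mrpl20 and Mrpl38 held in all 26 other fits, and at a threshold of 0.01 all of these but Mrpl20 passed. Those of Mrpl46, Mrpl47, Mrpl54 and Mrps23 did not hold in every fit, and without 6 °C mouse 4 the count of risers dropped from 9 to 5.

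Mrpl30, the counterpart of bacterial L30, fell furthest at the second step. Its level was 88.5, 84.0, 83.6 and 72.6 CPM in 30 °C mice 1, 2, A and B, 121, 160, 142 and 139 CPM in 22 °C mice 1 to 4, and 90.2, 95.3, 97.3 and 96.1 CPM in 6 °C mice 1 to 4. Every 6 °C library was thus below every 22 °C library and above every 30 °C library. The level was 1.49-fold lower at 6 °C than at 22 °C (log2 fold change -0.57, SE 0.09, edgeR adjusted p = 0.00042), and against 30 °C the difference did not pass (0.21, adjusted p = 0.0587). Mrps16, the counterpart of bacterial S16, took the same course. It went from 31.5, 35.6, 38.2 and 32.1 CPM at 30 °C to 49.7, 60.9, 52.1 and 49.8 CPM at 22 °C and 37.4, 40.6, 36.8 and 34.5 CPM at 6 °C, where the outer groups overlap and the 22 °C libraries stand above both. Its second step was -0.51 (SE 0.09, adjusted p = 0.00098). Further falls were -0.45 in both Mrpl33 and Mrps26, -0.43 in Mrps21, -0.40 in Mrps15, -0.39 in Mrps24 and -0.36 in Mrpl14.

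Mrps9, the counterpart of a bacterial protein of the small subunit head, had 67.6, 64.4, 67.4 and 53.6 CPM in 30 °C mice 1, 2, A and B. It had 74.5, 83.1, 61.6 and 69.7 CPM at 22 °C and 55.1, 50.3, 57.9 and 50.0 CPM at 6 °C. The 22 and 6 °C libraries did not overlap (log2 fold change -0.44, SE 0.10, edgeR adjusted p = 0.00538). Against 30 °C its value was -0.25 with an adjusted p of 0.0516. Mrpl49 fell by 0.40 on the log2 scale between 22 and 6 °C (SE 0.09, adjusted p = 0.00452). Of the 21 falls, 12 held at an adjusted p under 0.05 in all 26 other fits: those of Mrpl2, Mrpl27, Mrpl30, Mrpl33, Mrpl41, Mrpl49, Mrps9, Mrps15, Mrps16, Mrps21, Mrps24 and Mrps26. At a threshold of 0.01, 8 of them passed, and Mrpl2, Mrpl27, Mrpl41 and Mrps24 did not. Without 22 °C mouse 2, which was the highest 22 °C library for 69 of the 75 members (26.4% of all tested genes), 13 fell.

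**Figure D3:**
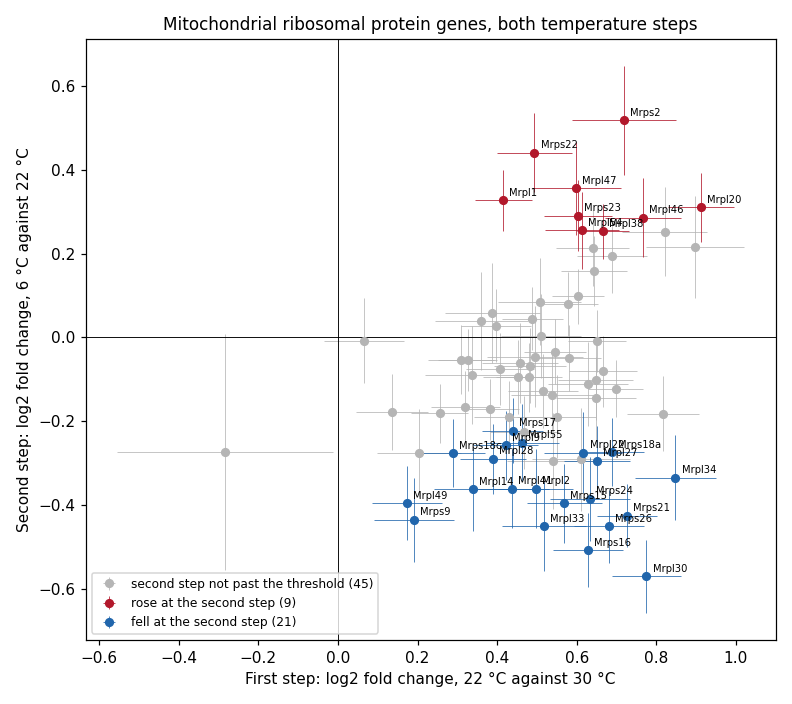
Each point is a tested member, with its log2 fold change from 30 to 22 °C on the horizontal axis, that from 22 to 6 °C on the vertical axis, and bars of 1 SE. The 9 members that rose at the second step (red) and the 21 that fell (blue) lie above and below the other 45 points by their vertical position; both axes use the 22 °C libraries, so no relation between the steps is read.

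The second step was smaller than the first in 57 of the 75 members and larger in 0, where the test subtracts the log2 change between 30 and 22 °C from the one between 22 and 6 °C. Among all tested genes 29.3% were called, 14.3% as larger and 15% as smaller in this signed sense. The median of this difference was -0.58, against -0.04 over all tested genes. It was furthest from 0 in Mrpl30 (-1.35, SE 0.15, edgeR adjusted p = 0.00015), followed by Mrpl34 (-1.18, SE 0.17), Mrps21 (-1.15, SE 0.13), Mrps16 (-1.14, SE 0.15) and Mrps26 (-1.13, SE 0.15). Mrps22 (-0.05, SE 0.16), Mrpl1 (-0.09, SE 0.12) and Mrps2 (-0.20, SE 0.22) did not pass, so for these no difference between the steps was detected. The 22 °C libraries enter both steps: without 22 °C mouse 2, 39 members had a smaller second step.

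**Figure D4:**
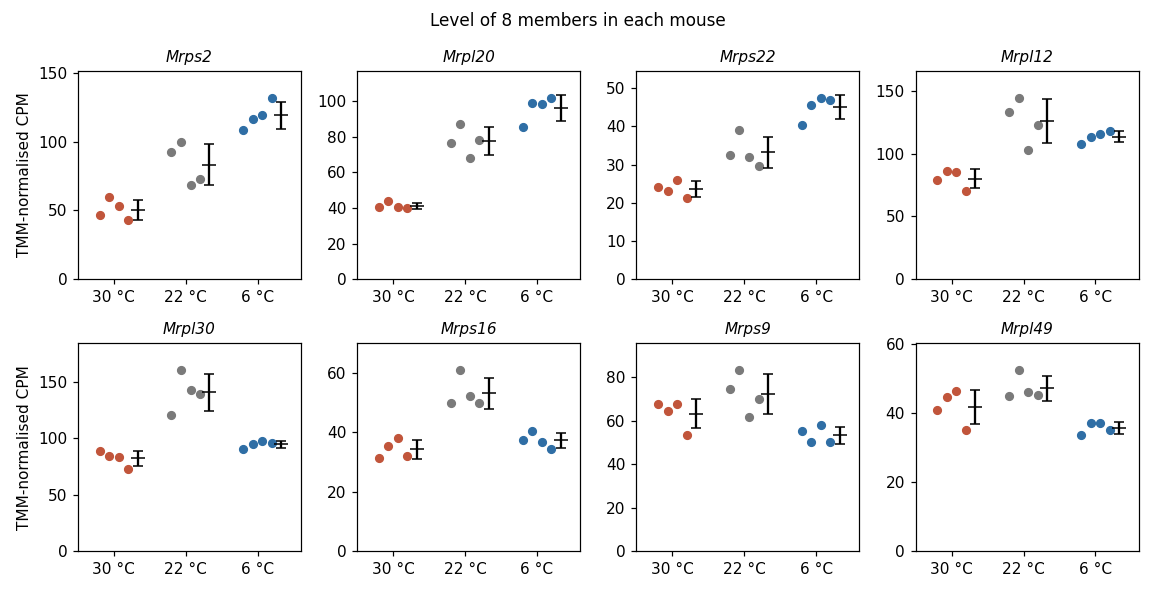
TMM-normalised CPM of 8 members in each mouse (points) and mean with SD over 4 mice (black) against ambient temperature, on axes that start at 0. Mrps2, Mrpl20 and Mrps22 climb at each step, Mrpl30 and Mrps16 peak at 22 °C, and Mrps9 and Mrpl49 are lowest at 6 °C; with total-count scaling only, the median log2 difference of all tested genes from 30 °C shifts by -0.26 at 22 °C and -0.32 at 6 °C.

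By role, the 3 genes of the stalk that recruits translation factors rose at 22 and 6 °C against 30 °C, with the least stable call in Mrpl11 at 6 °C, which held in 17 of 26 other fits and changed sign with total counts only. Mrpl10, which anchors it, had 60.2 ± 2.35 CPM (SD, n = 4) at 30 °C, 91.5 ± 6.62 at 22 °C and 97.9 ± 3.27 at 6 °C. Mrpl12, the stalk protein itself, which is also known to bind the mitochondrial RNA polymerase, had 79.3, 86.0, 85.8 and 70.0 CPM in 30 °C mice 1, 2, A and B, 133, 145, 103 and 123 CPM at 22 °C and 108, 113, 116 and 118 CPM at 6 °C. Its 22 and 6 °C groups overlapped and both stood above 30 °C (log2 fold changes 0.65, SE 0.10, and 0.50, SE 0.10). Mrpl11, at the base of the stalk, rose by 0.38 at 22 °C and 0.21 at 6 °C (SE 0.07 each, adjusted p = 0.0258 for the latter by edgeR), and with total counts only the latter value was -0.11. That call was also lost without 30 °C mouse 2, 30 °C mouse B or 6 °C mouse 4.

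Around the exit of the polypeptide tunnel, Mrpl45, which ties the ribosome to the inner membrane, rose by 0.33 (SE 0.07) at 22 °C and 0.27 (SE 0.07) at 6 °C, against -0.04 at 6 °C with total counts only. Mrpl24 rose by 0.26 (SE 0.07) at 22 °C alone, but with total counts only it was at -0.01, and the 6 °C value of 0.07 (-0.24 with total counts only) did not pass. Mrpl23 had 1.23 ± 0.422, 1.00 ± 0.212 and 0.834 ± 0.0667 CPM (SD, n = 4) at 30, 22 and 6 °C and passed no test. Mrpl39 and Mrpl44, mitochondria-specific large subunit proteins, rose by 0.42 and 0.51 at 6 °C. Mrpl41 rose at 22 °C (0.44, SE 0.09) and fell from there to 6 °C (-0.36, SE 0.09). Its value at 6 °C against 30 °C was 0.08, or -0.24 with total counts only.

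In the small subunit Mrps12, at the decoding centre, rose by 0.45 (SE 0.09) at 22 °C and 0.36 (SE 0.09) at 6 °C, and Mrps11, of the platform, by 0.63 and 0.52. The Mrps18 genes encode 3 related proteins, of which Mrps18a belongs to the large subunit. Mrps18a had 48.0, 49.1, 53.7 and 45.0 CPM in 30 °C mice 1, 2, A and B, 76.5, 84.9, 72.7 and 81.7 CPM at 22 °C and 60.7, 73.5, 64.4 and 62.3 CPM at 6 °C. Its 30 °C libraries stood below all others, and 6 °C mouse 2 reached into the 22 °C range. Mrps18b had means of 16.2 ± 1.39, 23.1 ± 3.71 and 24.5 ± 0.412 CPM (SD, n = 4) at 30, 22 and 6 °C, and Mrps18c of 24.9 ± 0.681, 30.5 ± 3.00 and 25.1 ± 1.77. So at 6 °C against 30 °C Mrps18a and Mrps18b rose (0.41 and 0.59), while Mrps18c did not pass (0.01; -0.31 with total counts only). Mrps30 rose by 0.46 and 0.39 at 22 and 6 °C.

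Genes with a bacterial counterpart and genes found only in mitochondria shared the first step, with medians of 0.51 (43 of 46 rose) and 0.54 (25 of 28 rose). At the second step 4 of the 46 with a counterpart rose and 17 fell (median -0.18), and 5 of the 28 mitochondria-specific genes rose and 4 fell (median -0.05). Among all tested genes 16.9% rose and 17.4% fell at this step, so the mitochondria-specific counts (17.9% and 14.3%) lie near that background. The difference between the classes was not tested. Mrps36 is in neither class. Median transcript length was 968 bases in the 20 falling members with a length and 1404 bases in the 9 rising ones. With all tested coding genes split into 3 classes by length, the shortest class had a median second step of -0.10 and the longest 0.03. Across the 74 members with a length, Spearman's rho of length and second step was 0.23, a description over genes of the same libraries. The part of length in the split was not tested. NRF1 letters were in the window of 0 of the 7 rising members with a promoter, 6 of the 21 falling ones and 6 of the 38 others. ETS letters were in 2, 9 and 12 of these, and YY1 letters in 0, 4 and 7. Differences between these shares were not tested.

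Per kilobase of annotated exon (RPKM, averaged over the temperatures), Mrpl34 was highest at 185, followed by Mrpl2 at 74.8, Mrps21 at 71.0, Mrpl12 at 69.7 and Mrps23 at 55.8. At the low end stood Mrpl53 at 0.142, Mrpl23 at 0.210, Mrps10 at 3.35, Mrpl48 at 3.38 and Mrps33 at 3.58. These are levels, and long annotated exon unions lower them. Mrpl34 stood at 78.9, 82.7, 87.4 and 69.6 CPM in 30 °C mice 1, 2, A and B, 146, 166, 115 and 147 CPM at 22 °C, and 113, 114, 110 and 117 CPM at 6 °C. Its 30 °C libraries lay below all others, and 22 °C mouse 3 lay within the 6 °C range (second step -0.33, SE 0.10, edgeR adjusted p = 0.0225). That step did not pass without 22 °C mouse 2 (-0.26, edgeR adjusted p = 0.0709), 22 °C mouse 4 (-0.32, 0.0527) or 6 °C mouse 3 (-0.32, 0.0573), or with the skeletal muscle markers as a covariate (-0.32, 0.0636).

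Libraries differed in ways shared by the members. At 22 °C, mouse 3, the deepest library, was the lowest of its group for 59 of 75 members (27.2% of all tested genes). At 30 °C, mouse B was the lowest for 64 (28.7% of all tested genes). Mouse B also had the highest summed macrophage markers (10 genes, none at 0): 506, 518, 1331 and 1637 CPM in 30 °C mice 1, 2, A and B, against 137 to 197 at 22 °C and 222 to 445 at 6 °C. Mouse A, second in these markers, was the lowest of its group for 0 of 75 members (22.3% of all tested genes). It had the highest member sum at 30 °C (3306 CPM). The 7 fibroblast and preadipocyte markers summed to 2130 to 4003 CPM at 30 °C, highest in mouse B, 844 to 1220 at 22 °C and 654 to 807 at 6 °C. The 7 endothelial markers summed to 1171 to 1395, 760 to 893 and 815 to 915 CPM. All 10 genes listed as brown adipocyte markers were found in every library. Some of them (Adipoq, Fabp4, Plin1 and Pparg) are not confined to brown adipocytes. The sum of the 10 was 10865 to 12715 CPM at 30 °C, 16856 to 19696 at 22 °C and 23132 to 25509 at 6 °C. Fabp4 was its largest part at 30 °C (mean of 5961 CPM). The last step of that sum rests on Ucp1, with means of 1469, 3373 and 10439 CPM, while Adipoq had 1068, 1100 and 621 CPM and Cidea 1625, 2431 and 1932 CPM. From 22 to 6 °C 1 of the 10 rose (10%) and 2 fell (20%), near the shares of all tested genes (16.9% and 17.4%). Skeletal muscle markers (10 genes) were uneven, from 8.53 CPM in a 6 °C library to 4073 in 30 °C mouse 1. White adipocyte markers summed to 209 to 320, 80.8 to 128 and 16.4 to 40.7 CPM, mostly through Nnat (means of 160, 22.4 and 5.19 CPM) and Lep (92.9, 74.2 and 13.6 CPM), whereas Hoxc8 had 4.09, 8.14 and 6.58 CPM. Of their 7 genes Wt1 and Tcf21 were at 0 in 10 and 11 libraries. The 8 T and natural killer cell markers summed to 9.57 to 17.4, 2.56 to 4.00 and 1.42 to 3.44 CPM, and the 7 proliferation markers to 44.4 to 74.1, 18.3 to 22.2 and 28.4 to 41.6 CPM. In bulk tissue, fewer cells of a type and less RNA per cell cannot be told apart. The part of cell makeup in the members' changes was not tested. Without 30 °C mice A and B, 48 members rose and 2 fell at 6 °C and 65 rose at 22 °C.

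The mitochondrial ribosomal RNAs rose with the proteins. The RNA mt-Rnr1, of the small subunit, had 4288, 4345, 3802 and 3276 CPM in 30 °C mice 1, 2, A and B, 8956, 9432, 4540 and 8163 CPM at 22 °C and 7406, 8135, 8879 and 8300 CPM at 6 °C. Mouse 3 stands far below the other 22 °C mice, though above all at 30 °C. The log2 fold change was 0.98 (SE 0.19) at 22 °C and 1.06 (SE 0.19) at 6 °C against 30 °C, and 0.07 (edgeR adjusted p = 0.786) between 22 and 6 °C. The large subunit RNA, mt-Rnr2, had 7169, 7209, 5542 and 5510 CPM in 30 °C mice 1, 2, A and B, and 11118, 12784, 6529 and 9357 CPM at 22 °C. Here 22 °C mouse 3 lay within the 30 °C range. The log2 fold change was 0.65 (SE 0.19) at 22 °C and 0.68 (SE 0.19) at 6 °C against 30 °C. Whether ribosomal RNA was removed or messenger RNA selected for these libraries is not given in the sources used here, and such a step can set these levels.

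Other genes of the translation machinery of mitochondria rose as well. All 7 listed mitoribosomal proteins under other names rose at 22 °C, and 6 at 6 °C against 30 °C. Ptcd3, a small subunit protein, had 70.1, 64.8, 57.7 and 50.3 CPM in 30 °C mice 1, 2, A and B, 90.9, 98.3, 93.7 and 87.1 CPM at 22 °C and 124, 126, 142 and 143 CPM at 6 °C, with no overlap between groups. Ict1, the subunit that frees stalled ribosomes, rose by 0.69 (SE 0.11) and 0.65 (SE 0.11), and Aurkaip1 by 0.60 and 0.35. Of 21 translation factors and helpers 16 rose at 22 °C and 15 at 6 °C against 30 °C, and 0 fell in either. From 22 to 6 °C, 5 of the 21 rose and 1 fell. Letm1, an inner membrane protein tied to ion exchange, had 146 ± 14.5, 381 ± 48.1 and 762 ± 40.5 CPM (SD, n = 4) at 30, 22 and 6 °C. Gfm1, the elongation factor that moves the ribosome along, had 111 ± 17.1, 181 ± 7.96 and 276 ± 17.8 CPM, and Gfm2, which splits ribosomes for reuse, rose by 0.99 (SE 0.09) at 6 °C. Of 26 assembly and RNA-modifying factors, 15 rose and 0 fell at 22 °C, and 15 rose and 3 fell at 6 °C against 30 °C. Fastkd2, an RNA-binding protein of the large subunit's assembly, rose by 0.96 (SE 0.08), Nsun4, a methyltransferase, by 0.88 (SE 0.10), and Noa1, an assembly GTPase, by 0.71 (SE 0.10). Over these 3 lists 38 of 54 genes rose at 22 °C and 36 at 6 °C, or 19 and 17 with total counts only.

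Genes that make and process mitochondrial RNA changed in part. Of 14 for transcription and copying of mitochondrial DNA 8 rose and 0 fell at 22 °C, and 7 rose and 1 fell at 6 °C, against 30 °C. Tfb2m, the transcription factor that opens the promoter, rose by 0.99 (SE 0.11) at 6 °C, Tfam, which packs the DNA, by 0.55 (SE 0.09), and Polrmt, the RNA polymerase, by 0.69 (SE 0.12). Of 12 for RNA processing 7 rose and 0 fell at 22 °C, and 10 rose and 1 fell at 6 °C against 30 °C. Elac2, which cuts transfer RNA ends, rose by 0.74 (SE 0.07), Trmt10c, of the RNase P complex, by 0.85 (SE 0.09), and Hsd17b10, another part of that complex, fell by 0.49 (SE 0.09). Among 9 regulators of mitochondrial genes 2 rose and 3 fell at 22 °C, and 3 rose and 3 fell at 6 °C, against 30 °C, near the shares of all tested genes at 6 °C (25.3% higher, 31.5% lower). Esrra, a nuclear receptor, rose by 0.88 (SE 0.09), Gabpa by 0.74 (SE 0.13) and the coactivator Ppargc1a by 1.19 (SE 0.23), while Gabpb1, the partner of Gabpa, fell by 0.64 (SE 0.09), Nrf1 by 0.29 (SE 0.11) and Myc by 1.96 (SE 0.24). Yy1 had 48.6 ± 1.69, 48.7 ± 3.16 and 49.9 ± 4.23 CPM (SD, n = 4) at 30, 22 and 6 °C.

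The ribosome of the cytosol took another course. Of 84 tested cytosolic ribosomal protein genes 6 rose and 9 fell at 22 °C against 30 °C (median log2 fold change -0.05). At 6 °C against 30 °C 6 rose and 50 fell (median -0.52), and from 22 to 6 °C 5 rose and 45 fell (median -0.43). Among all tested genes 21.8% rose and 22.8% fell in the first of these comparisons, 25.3% and 31.5% in the second, and 16.9% and 17.4% in the third. The summed level of the cytosolic set was 3349 ± 310, 3238 ± 294 and 2424 ± 78.4 CPM (SD, n = 4) at 30, 22 and 6 °C. At 30 °C they held a mean of 0.383% of all counts, against 0.355% for the members and 3.85% for respiratory chain subunits. How reads of near-identical copies such as pseudogenes were counted is not given in the sources used here. The levels and changes of this set are uncertain to that extent. Nuclear-encoded subunits of the respiratory chain and ATP synthase, most of which have partners made by the mitochondrial ribosome, shared the first step with the members. Of 79 tested, 73 rose and 2 fell at 22 °C against 30 °C (median 0.61), and 49 rose and 4 fell at 6 °C against 30 °C (median 0.31). From 22 to 6 °C 0 rose and 41 fell (median -0.30). Their second step was smaller than the first in 70 of the 79 and larger in 1 (15% and 14.3% of all tested genes). The median difference of their steps was -0.85, so a smaller second step is not particular to the members. Differences between these lists were not tested.

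**Figure D5:**
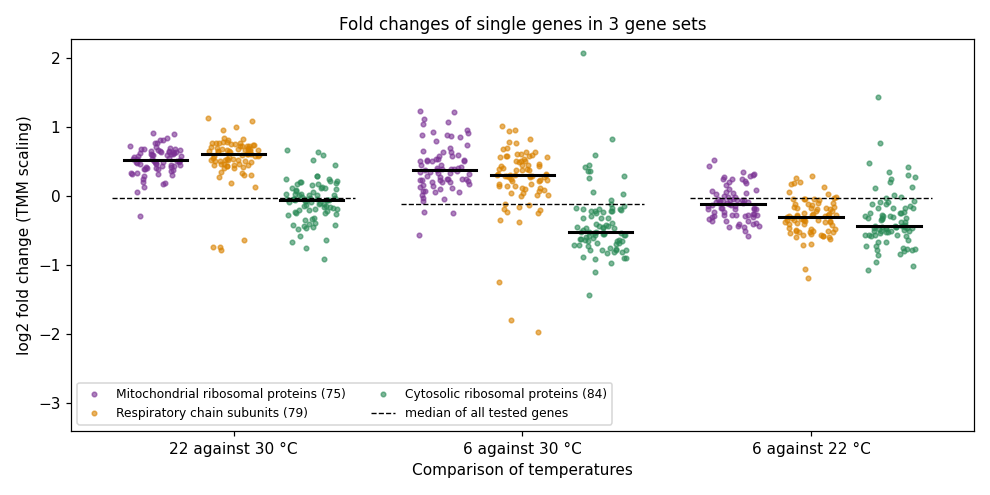
Log2 fold change (TMM scaling) of each gene in 3 gene sets for the 3 comparisons of temperatures; coloured points are genes, black bars are set medians and the dashed line is the median of all tested genes. Medians of the mitochondrial ribosomal proteins are 0.52, 0.39 and -0.11 and those of the cytosolic ribosomal proteins -0.05, -0.52 and -0.43, left to right; with total-count scaling only, the members' median at 6 °C against 30 °C is 0.07.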

How the data were processed

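The values are raw read counts per gene in a table that the authors deposited. Per the submitters' processing notes, their tools included FastQC 0.10.1, STAR 2.4.2a and edgeR 3.14.0, with GRCm38 and mm10 as builds; no role or order is recorded. Which program counted the reads, on which annotation and whether by strand, is not given in the sources used here. Columns were matched to mice by title for 10 libraries, and 2 were placed at 30 °C by their letter alone. Members were taken by symbol, and Ensembl identifiers supplied positions and lengths from GENCODE for GRCm38, which holds 96.6% of the identifiers but not that of Mrpl33.

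The main analysis used edgeR 4.0.16 (R 4.3.3): filterByExpr (14870 genes kept), TMM scaling, 1 robust glmQLFit over all 12 libraries and two-sided glmQLFTest. Genes were called at a Benjamini-Hochberg adjusted p under 0.05. SE is the log2 fold change over the square root of F. Fits were checked on simulated counts. Alternatives were other scalings, filters, DESeq2 1.42.0, limma voom (limma 3.58.1), fits on fewer libraries, a replicate block, a thinned deep library, a muscle marker covariate and a threshold of 0.01. Named were up to 10 called members with the largest change per direction and pair of temperatures, the 4 smallest p for the difference of the steps, extremes per length, overlapping genes, members removed by the filter, a panel of roles and 3 genes of each other list. Others named were chosen after their values were seen. The members and lists were chosen with earlier results of these data known. Kinases and binding proteins that the pattern for cytosolic ribosomal proteins caught, and 2 assembly genes (Atp5s, Atp5sl), were taken out of the compared lists after the table was seen. Within each temperature the chi-square between any 2 libraries was at least 22.8 times its degrees of freedom, so no 2 were copies of 1 library. That value cannot tell 2 libraries of 1 mouse from libraries of 2 mice. All 12 entered as separate mice because the labels give 4 mice per temperature.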

Additional observations from a re-analysis of the deposited data

Results flagged for a closer look

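In 96 groups of 4 libraries (summed sets and members shown by mouse), 3 held a library far from the others, measured as its gap to the nearest library over the range of the group; chance alone gives about 1 in 20. Summed skeletal muscle markers were 4073 CPM in 30 °C mouse 1 and 3002 CPM in 22 °C mouse 4, each far above the other 3 mice of the group. Mrpl49 stood at 52.5 CPM in 22 °C mouse 2, where the other 22 °C mice lay within 45.0 to 46.2 CPM.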

How the results depend on the processing

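With total counts as the only scaling, 25 members were higher and 12 lower at 6 °C against 30 °C (median log2 fold change 0.074), the median at 22 °C against 30 °C was 0.26, 33 members were lower at 6 °C than at 22 °C, the median difference of the steps was -0.37, and 17 (6 °C) and 19 (22 °C) genes of the rest of mitochondrial translation were higher than at 30 °C. Signs were compared only for named members called in the main fit or in the alternative. Sign changes found among these were all under this scaling. At 6 °C against 30 °C they were Mrpl11 (-0.11), Mrpl24 (-0.24), Mrpl41 (-0.24), Mrpl45 (-0.042), Mrps18c (-0.31) and Mrps21 (-0.012), and at 22 °C Mrpl24 (-0.0076). The count of members lower at 6 °C against 30 °C, 1 in the report, was 0 with DESeq2, limma voom, RLE scaling, no filter, only the 8 libraries compared, the replicate block or an adjusted p under 0.01, and 2 with upper-quartile scaling, a filter of 1 CPM in 4 libraries or without 30 °C mice A and B. From 22 to 6 °C, 5 members were higher with the muscle markers as covariate, and 4 were higher and 8 lower at an adjusted p under 0.01.

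Same-numbered mice are only numbered alike in the labels, and correlations of their deviations ran from -0.04 to 0.35. With the mouse number as a replicate block (10 libraries), 43 members were higher at 6 °C and 62 at 22 °C against 30 °C, 9 were higher and 17 lower from 22 to 6 °C, the second step was smaller in 40, and 29 cytosolic ribosomal proteins were lower at 6 °C against 30 °C.

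Leaving out each library in turn gave 46 to 57 higher, 0 to 2 lower and a median of 0.33 to 0.43 at 6 °C against 30 °C; 66 to 70 higher, 0 to 0 lower and 0.45 to 0.57 at 22 °C against 30 °C; 5 to 10 higher, 13 to 25 lower and -0.15 to -0.04 from 22 to 6 °C; and 39 to 62 smaller, 0 to 0 larger and -0.66 to -0.47 for the difference of the steps. Cytosolic ribosomal proteins fell in 48 to 55 cases at 6 °C against 30 °C and in 39 to 48 from 22 to 6 °C, respiratory chain subunits rose in 71 to 74 at 22 °C, and the rest of mitochondrial translation rose in 30 to 36 at 6 °C and 35 to 39 at 22 °C. Of 4044 alternative values for 151 results on single members, 3838 kept their side of the threshold, with the same direction where called. A further 181 lost the call, 18 gained it and 7 changed sign. Values called in neither fit count among the 3838 whatever their sign. The cause of the lost, gained and reversed calls was not tested. Few reads were counted for Mrpl53 (37 counts) and Mrpl23 (382 counts), and the cause of these low counts was not tested.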
